A study of Mus musculus with 8 samples.

Results

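The genes described here are 42 genes of the cell cycle and DNA replication, measured in dermal fibroblasts sorted from old and young mouse skin. They were chosen by name, as textbook members of 5 roles: entry into the cycle from G1, DNA replication, the cyclins and kinases that drive S phase to mitosis, the mitotic checkpoint with the anaphase-promoting complex, and the chromosome and spindle proteins of mitosis. Of the 42, 41 were measured by a probe set that the platform annotation ties to 1 gene symbol, out of 17097 such genes on the arrays. Ccnb1 had no such probe set, so its expression was not analysed here, and it enters only the promoter counts. Where a gene had several probe sets, the one with the highest mean over the 8 arrays stood for it.

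The old group was 4 male C57Bl/6 mice aged 18 months and the young group 4 male C57Bl/6 mice aged 2 months, with 1 Affymetrix array for each mouse. No transgene or treatment is named in the labels for either age. After removal of the subdermis the skin was dissociated with collagenase, and cells that lacked CD45, CD117, CD24, CD31 and EpCam but carried Pdgfra and CD34 were sorted, 5000 per mouse, so the arrays describe freshly sorted cells and not cultures. The RNA went through 21 amplification cycles, and 2 old and 2 young mice were taken on each collection day, though the labels do not say which mice shared a day.

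A cell enters the cycle when D-type cyclins and their kinases Cdk4 and Cdk6 phosphorylate the retinoblastoma protein and its relatives, which releases E2F factors to switch on genes for DNA synthesis. Genes of mitosis are switched on later, through promoter elements read by the DREAM and B-Myb–MuvB complexes, and are repressed through the same elements in resting cells. Most fibroblasts of adult dermis rest outside the cycle. In such bulk samples, fewer cycling cells and less RNA per cell cannot be told apart.

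None of the 41 genes passed the threshold between old and young fibroblasts (limma, Benjamini-Hochberg adjusted p under 0.05 over all 17097 genes). On the arrays as a whole, 3.97% of genes passed it, 1.82% higher and 2.15% lower in old mice. The lowest adjusted p among the members was 0.118, for Pcna. At an unadjusted limma p under 0.05 there were 2 members, Pcna higher and Mcm5 lower in old mice, which is 4.88% of the 41 against 15.1% of all genes. The old and young mice did not overlap for 2 members, Pcna and Ccnd3, against 9.7% of all genes. Changes, given throughout as the log2 value of old minus young mice, ran from -0.38 for Cdk6 to 0.31 for Pcna. The change was negative for 26 members and positive for 15, against 7878 negative and 9085 positive over all genes. These counts were not tested. The median was -0.02 over the members, against 0.01 over all genes.

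**Figure D1:**
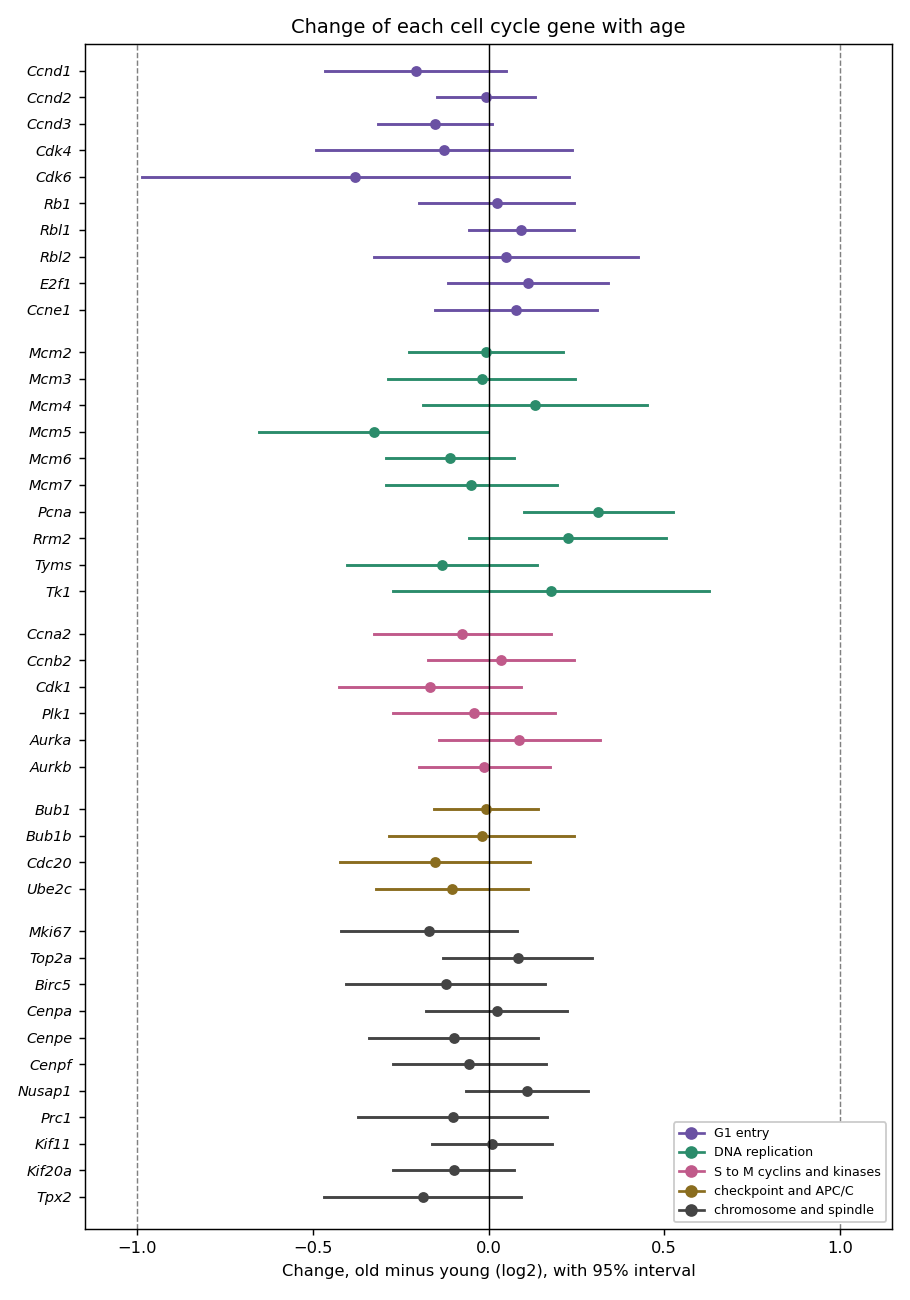
Change in log2 expression, old minus young (horizontal axis), for each of the 41 measured genes, grouped by role. Points are the limma estimates and bars their 95% intervals, from 4 old and 4 young mice. The points lie between -0.38 and 0.31. Only the bars of Pcna and Mcm5 do not cross 0, and that of Mcm5 ends just short of it, at -8e-04.

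The intervals show how large a difference these arrays leave room for. The 95% interval of the change lay wholly within 0.5 log2 units of 0, a factor of 1.41, for 36 of the 41 members (87.8%), against 80.9% of all genes. It lay within 1 log2 unit of 0 for all 41, as it did for 97.2% of all genes. The other 5, whose intervals reached past 0.5 on 1 side, were Cdk6, Mcm5, Pcna, Rrm2 and Tk1. Limma's moderated residual SD, drawn towards a value common to all genes, had a median of 0.15 over the members. Over all genes the median was 0.13.

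Signal strength limits these statements. The median over all probe-set means was 5.10 on the log2 scale, and a probe set below it was taken as dim. The 23 non-specific control probe sets had a median value of 3.91 and single values from 2.98 to 7.20, so a value above 5.10 can still lie among the controls. The probe-set mean was below 5.10 for 13 members. All 8 arrays were above 5.10 for 22 members and below it for 8, and the other 11 members lay on both sides. The 8 below on every array were Rb1, Rbl1, Mcm6, Bub1, Top2a, Cenpa, Nusap1 and Kif11, and whether the arrays measured their transcripts was not tested.

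**Figure D2:**
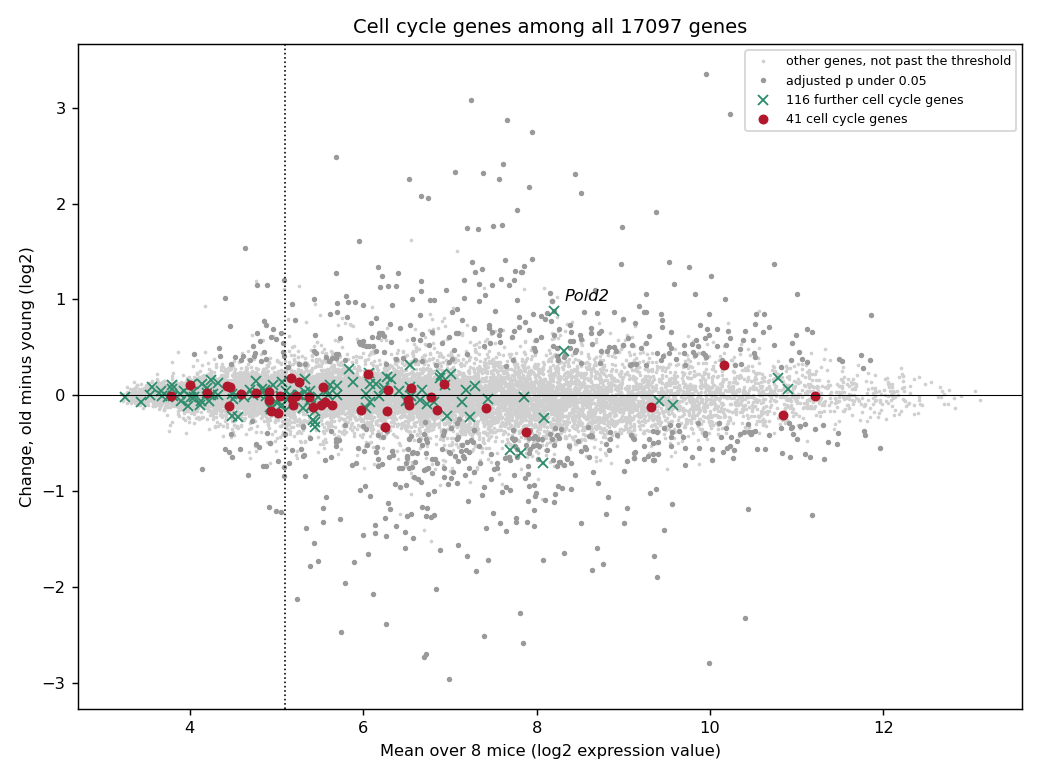
Change in log2 expression, old minus young (vertical axis), against the mean log2 signal over the 8 arrays (horizontal axis) for all 17097 genes, with the 41 members in red and 116 further cell cycle genes as green crosses. Dark grey points passed the threshold, the dotted line stands at the dim threshold of 5.10, and all member points keep between -0.38 and 0.31 on the vertical axis.

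Of the members' promoters, 4 are printed here because they belong to the genes the comparison turns on or to the best known proliferation markers. Each is the window from 250 bases before to 50 bases after the transcription start, 5′ to 3′ on the strand of the gene, from RefSeq on GRCm38.p6. Capitals mark matches on either strand to the cell cycle genes homology region or CHR (TTTGAA), to the CCAAT box (CCAAT) and to E2F sites (TTTCCCGC, TTTGGCGC, TTTCGCGC or TTTGCCGC). Pcna, the sliding clamp that holds DNA polymerase on its template, is at chr2:132253131-132253430 on the minus strand. Mcm5, a subunit of the replicative helicase, is at chr8:75109259-75109558 on the plus strand. Cdk1, the kinase that drives mitosis, is at chr10:69352863-69353162 on the minus strand. Mki67, which encodes the Ki-67 antigen used to stain cycling cells, is at chr7:135716330-135716629 on the minus strand.
Pcna: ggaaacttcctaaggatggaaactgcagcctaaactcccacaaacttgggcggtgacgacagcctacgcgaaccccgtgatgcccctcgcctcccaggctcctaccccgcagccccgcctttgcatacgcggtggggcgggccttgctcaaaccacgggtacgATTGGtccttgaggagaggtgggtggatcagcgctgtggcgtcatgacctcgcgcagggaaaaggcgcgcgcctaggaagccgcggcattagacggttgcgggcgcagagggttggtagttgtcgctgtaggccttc
Mcm5: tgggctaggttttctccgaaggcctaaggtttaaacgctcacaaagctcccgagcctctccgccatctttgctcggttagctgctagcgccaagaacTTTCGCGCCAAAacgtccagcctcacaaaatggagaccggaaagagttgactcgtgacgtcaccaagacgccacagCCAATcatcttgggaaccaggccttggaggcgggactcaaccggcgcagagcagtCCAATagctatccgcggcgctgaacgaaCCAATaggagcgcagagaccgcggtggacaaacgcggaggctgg
Cdk1: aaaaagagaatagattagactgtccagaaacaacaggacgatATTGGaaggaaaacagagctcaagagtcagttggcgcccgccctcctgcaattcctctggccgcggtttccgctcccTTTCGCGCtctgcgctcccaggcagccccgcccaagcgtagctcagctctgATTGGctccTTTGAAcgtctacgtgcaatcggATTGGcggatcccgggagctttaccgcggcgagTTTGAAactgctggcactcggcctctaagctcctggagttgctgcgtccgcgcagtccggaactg
Mki67: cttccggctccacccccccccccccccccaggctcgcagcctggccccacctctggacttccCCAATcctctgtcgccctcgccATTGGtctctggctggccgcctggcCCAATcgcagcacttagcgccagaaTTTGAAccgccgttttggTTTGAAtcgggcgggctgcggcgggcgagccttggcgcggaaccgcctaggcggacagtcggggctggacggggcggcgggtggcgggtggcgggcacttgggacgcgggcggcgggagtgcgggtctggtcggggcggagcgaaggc

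The Pcna window held 1 CCAAT match and none to the CHR or E2F letters. The Mcm5 window held 3 CCAAT matches and 2 overlapping E2F matches, 1 on each strand, which appear as a single run of capitals. The Cdk1 window held 2 CHR, 3 CCAAT and 1 E2F match, and the Mki67 window 2 CHR and 3 CCAAT matches. A window was given for 34 of the 42 members and for 27025 genes in all.

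Shares of windows with these letters were counted by role, with no test. Among the members of the S-to-mitosis, checkpoint and chromosome roles, 13 of 18 windows (72.2%) held a CHR, against 20.2% of all genes with a window. The CCAAT box was in 16 of these 18 (88.9%), against 41.1% of all genes, and CHR and CCAAT stood together in 13 of 18 (72.2%), against 7.97%. E2F letters were in 4 of the 9 DNA replication windows (44.4%), those of Mcm3, Mcm5, Mcm6 and Mcm7, against 2.6% of all genes. Of the 7 G1 windows, 1 held a CHR, 1 a CCAAT box and 1 an E2F match. A match describes the letters and is not by itself a binding site.

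The 10 genes of G1 entry came out evenly, with 5 negative and 5 positive changes, a median of 0.01 and none past the threshold. The D-type cyclins carry growth signals to Cdk4 and Cdk6. Ccnd1 (cyclin D1) had log2 values of 10.56, 10.74, 10.73 and 10.94 in old replicates 1 to 4, against 10.96, 11.10, 11.08 and 10.66 in young replicates 1 to 4. Young replicate 4 lay among the old mice and old replicate 4 close to young replicate 1, so the groups overlapped. The change was -0.21 ± 0.12 (SE), with a 95% interval from -0.47 to 0.05 (limma adjusted p = 0.469).

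Ccnd2 (cyclin D2) was nearly level, at 11.15, 11.21, 11.24 and 11.24 in old mice, against 11.27, 11.28, 11.17 and 11.15 in young mice. All 8 values fell within 0.13 log2 units, and the 95% interval of the change ran from -0.15 to 0.13. Ccnd3 (cyclin D3) was lower in every old mouse, at 6.62, 6.85, 6.77 and 6.87, than in any young mouse, at 6.96, 6.96, 6.90 and 6.90. The nearest old and young values, 6.87 and 6.90, were close, and the change of -0.15 ± 0.07 (SE) had an interval from -0.31 to 0.01 (limma adjusted p = 0.363).

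Of the kinases, Cdk4 had 8.77, 9.25, 9.48 and 9.50 in old mice, against 9.60, 9.37, 9.39 and 9.15 in young mice. Old replicate 1 was the lowest and the other old mice lay among the young. Cdk6 had 6.83, 7.58, 8.14 and 8.22 in old mice, against 7.92, 7.98, 8.35 and 8.04 in young mice. Again old replicate 1 was lowest, old replicate 2 came next, and old replicates 3 and 4 lay within the young range. The Cdk6 change of -0.38 ± 0.27 (SE) was the most negative of the 41, with an interval from -0.99 to 0.23 (limma adjusted p = 0.608), and it was -0.09 without old replicate 1.

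The pocket proteins, which hold E2F factors in check, showed no change past the threshold. Rb1 was dim on all arrays, at 3.98 to 4.44 in old mice and 4.10 to 4.23 in young mice. Rbl1 (p107) was dim too, at 4.38 to 4.58 in old mice and 4.33 to 4.43 in young mice. Rbl2 (p130), the pocket protein that builds the repressive complex of resting cells, was measured above the dim threshold, at 5.76, 6.54, 6.41 and 6.53 in old mice, against 6.35, 6.42, 6.10 and 6.17 in young mice. Old replicate 1 was far below the other 3 old mice, which lay above most young mice. Its change was 0.05, with an interval from -0.33 to 0.43, and 0.23 without old replicate 1 (limma adjusted p = 0.947 and 0.265).

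E2f1, an activating E2F factor, had 7.13, 7.08, 6.82 and 6.94 in old mice, against 6.91, 6.98, 6.99 and 6.64 in young mice, a change of 0.11 with overlapping groups. Ccne1 (cyclin E1), an E2F target that activates Cdk2 at the start of S phase, had 6.77, 6.53, 6.49 and 6.56 in old mice, against 6.67, 6.65, 6.43 and 6.29 in young mice. The change was 0.08 and the groups overlapped.

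The 10 DNA replication genes hold both members with an unadjusted p under 0.05, and they point opposite ways. Pcna had 10.21, 10.22, 10.34 and 10.51 in old mice, against 9.94, 10.04, 10.18 and 9.87 in young mice. Every old mouse lay above every young mouse, though old replicate 1 and young replicate 3 were only narrowly apart. The means were 10.32 ± 0.14 in old mice and 10.01 ± 0.13 in young mice (SD, n = 4 each). The change was 0.31 ± 0.09 (SE), a 1.24-fold difference, with an interval from 0.10 to 0.52 and a limma adjusted p of 0.118. Leaving out each mouse in turn gave changes from 0.25 to 0.37 with limma adjusted p from 0.0952 to 0.253.

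Mcm5 had 6.08, 6.16, 5.77 and 6.35 in old mice, against 6.72, 6.50, 6.25 and 6.20 in young mice. Old replicate 4 was above young replicates 3 and 4, so the groups overlapped. The means were 6.09 ± 0.24 in old mice and 6.42 ± 0.24 in young mice (SD, n = 4 each), a change of -0.33 ± 0.15 (SE) with a limma adjusted p of 0.329. Without 1 mouse at a time the change ran from -0.41 to -0.22.

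**Figure D3:**
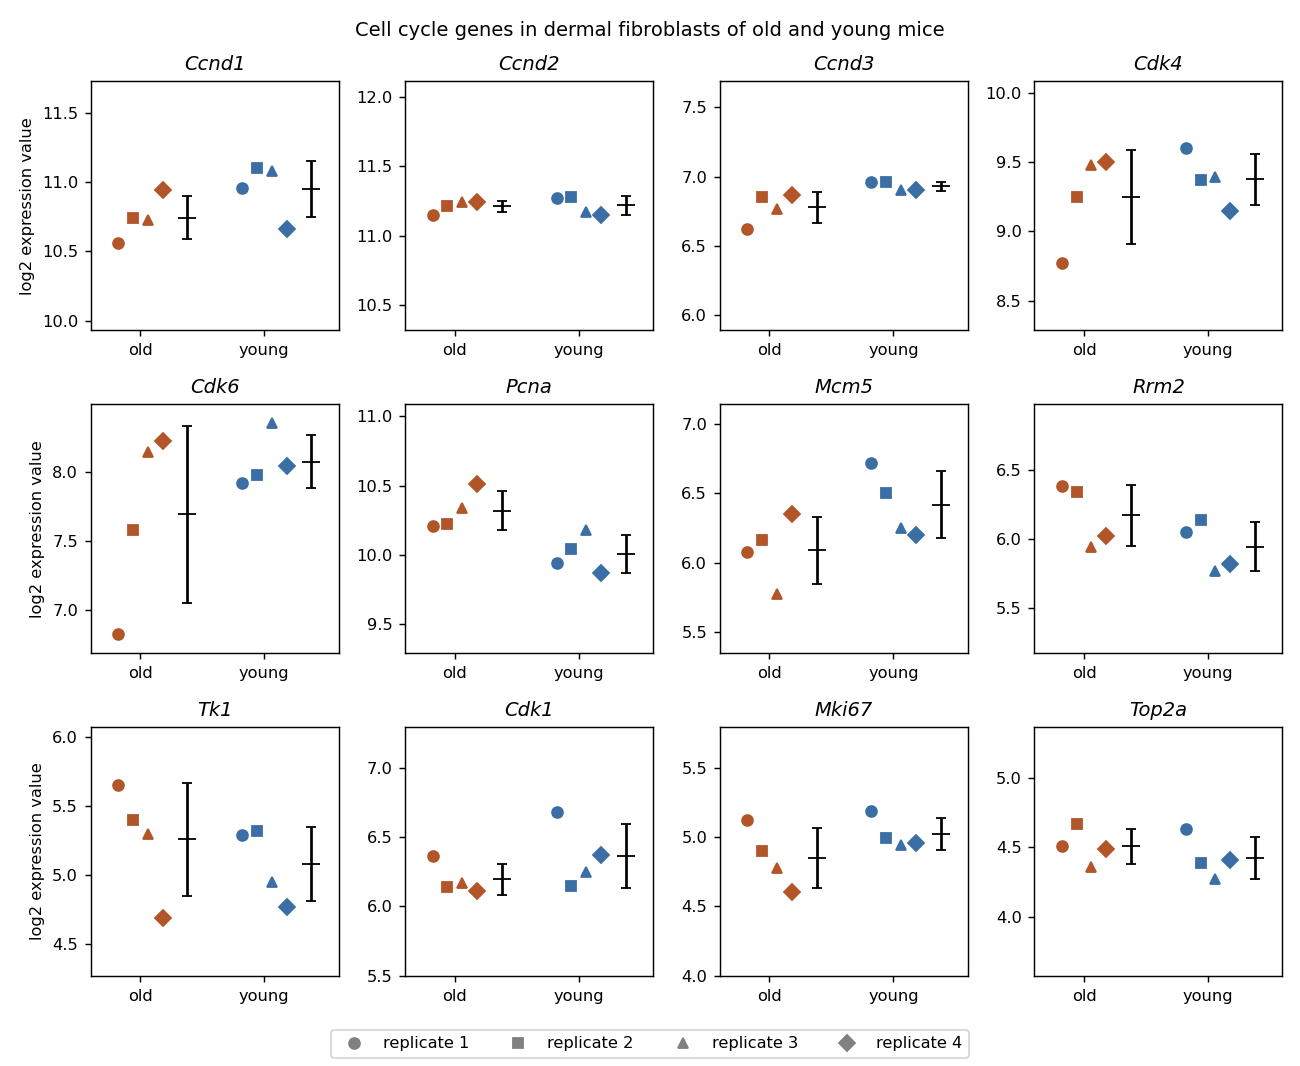
Log2 expression (vertical axis, each panel spanning 1.8 log2 units) of selected members in old mice (left) and young mice (right) of each panel. Each point is 1 mouse, its shape the replicate number, and the bar is the mean ± SD (n = 4 each). The old and young points are apart for Pcna and Ccnd3 and overlap for Mcm5 and Cdk6.

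Of the other 5 subunits of the MCM helicase, 4 had a negative change and Mcm4 a positive one, all smaller in size than that of Mcm5. Mcm4 had 5.02, 5.15, 5.54 and 5.57 in old mice, against 5.02, 5.18, 5.11 and 5.44 in young mice, a change of 0.13 with overlap. Mcm3 had 6.59, 6.70, 6.67 and 7.14 in old mice, against 6.93, 6.80, 6.76 and 6.69 in young mice, where only old replicate 4 stood above the young range. The changes of Mcm2, Mcm3, Mcm6 and Mcm7 were -0.01, -0.02, -0.11 and -0.05, and each of the 4 had overlapping groups. Mcm2 was more even among old mice, at 5.21 to 5.24, than among young mice, at 5.01 to 5.45. The 6 subunits act as 1 ring, and the 5 others had limma adjusted p of at least 0.625.

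The genes that supply the DNA building blocks were Rrm2, Tyms and Tk1. Rrm2, the regulated subunit of ribonucleotide reductase, had 6.38, 6.34, 5.94 and 6.02 in old mice, against 6.05, 6.14, 5.77 and 5.82 in young mice. Replicates 1 and 2 were above replicates 3 and 4 at both ages, and old replicates 3 and 4 lay within the young range. The change was 0.23 ± 0.13 (SE), with an interval from -0.06 to 0.51 (limma adjusted p = 0.472). Tyms (thymidylate synthase) had 7.13, 7.37, 7.50 and 7.40 in old mice, against 7.72, 7.62, 7.31 and 7.28 in young mice, a change of -0.13 with overlap. Tk1 (thymidine kinase 1) had 5.65, 5.40, 5.30 and 4.69 in old mice, against 5.29, 5.32, 4.95 and 4.77 in young mice. Old replicate 4 was the lowest of all 8 and old replicate 1 the highest, and the interval of the change, from -0.27 to 0.63, was among the widest.

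The 6 measured cyclins and kinases that carry the cell from S phase to mitosis had changes from -0.17 to 0.09, 4 negative and 2 positive, with a median of -0.03. Cdk1 had 6.36, 6.14, 6.17 and 6.11 in old mice, against 6.68, 6.15, 6.25 and 6.37 in young mice. Young replicate 1 was highest and the other 7 mice lay close together. The change was -0.17, with an interval from -0.43 to 0.09 (limma adjusted p = 0.587). Its promoter, printed above, holds all 3 kinds of letters.

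Ccna2 (cyclin A2), the partner of Cdk2 in S phase, had 5.75, 5.39, 5.41 and 5.56 in old mice, against 5.80, 5.66, 5.36 and 5.59 in young mice, so replicate 1 was highest at either age. Ccnb2 (cyclin B2), a partner of Cdk1, was dim or nearly so, at 4.86 to 5.0 in old mice and 4.70 to 5.13 in young mice. Plk1, the polo-like kinase of mitotic entry, had 5.34, 5.17, 5.07 and 5.05 in old mice, against 5.32, 5.36, 4.98 and 5.14 in young mice. For these 3 the groups overlapped and the changes were no larger in size than 0.08. Aurka, the kinase of spindle poles, had 5.45 to 5.73 in old mice and 5.28 to 5.68 in young mice. Aurkb, the kinase of the chromosomal passenger complex, had 4.89 to 5.24 in old mice and 5.0 to 5.07 in young mice.

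All 4 genes of the spindle checkpoint and the anaphase-promoting complex had a negative change, with a median of -0.06 and none past the threshold. Over all 17097 genes, 7878 had a negative change. Those of Bub1 and Bub1b were near 0, at -0.01 and -0.02, and a second probe set of Bub1b gave 0.19. Cdc20, the activator that the checkpoint holds back, had 6.02, 5.75, 5.92 and 5.88 in old mice, against 6.38, 6.07, 5.92 and 5.81 in young mice. Young replicate 1 was highest, and young replicates 3 and 4 lay within the old range. Its change was -0.15, with an interval from -0.42 to 0.12 (limma adjusted p = 0.658). Ube2c, the ubiquitin-conjugating enzyme of the complex, had 6.47, 6.42, 6.35 and 6.66 in old mice, against 6.76, 6.44, 6.47 and 6.65 in young mice. The change was -0.11, with overlap. Bub1b (BubR1), a checkpoint protein, had 5.03 to 5.60 in old mice and 5.30 to 5.52 in young mice. Bub1, its partner kinase, was dim in all 8 mice, at 3.72 to 3.84 in old and 3.72 to 3.87 in young.

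The 11 chromosome and spindle genes had 7 negative and 4 positive changes, with a median of -0.10. Every 95% interval lay within 0.5 log2 units of 0, against 80.9% of all genes and 71.2% of those at or above the dim threshold. Such intervals were thus commoner at low signal, and 7 of the 11 genes had a mean below that threshold. Mki67 had 5.12, 4.90, 4.78 and 4.60 in old mice, against 5.19, 4.99, 4.94 and 4.96 in young mice. Replicate 1 was highest at each age, old replicates 2, 3 and 4 were below every young mouse, and old replicate 1 was above 3 of the 4. The change was -0.17 ± 0.11 (SE), with an interval from -0.42 to 0.08 (limma adjusted p = 0.562). Most of these values lie below the dim threshold of 5.10.

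Birc5 (survivin), of the chromosomal passenger complex, had 5.32, 5.34, 5.30 and 5.46 in old mice, against 5.89, 5.37, 5.27 and 5.38 in young mice. Young replicate 1 stood well above the other 7 mice, which were within the same narrow band. Tpx2, which nucleates spindle microtubules, had 4.90, 5.04, 4.66 and 5.08 in old mice, against 5.38, 5.15, 4.88 and 5.02 in young mice. Its change of -0.19 had the most negative estimate of the 11 genes, and its groups overlapped (limma adjusted p = 0.572).

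Top2a, the topoisomerase that untangles sister chromatids, was dim on all arrays, at 4.36 to 4.67 in old mice and 4.27 to 4.63 in young mice. The centromere genes Cenpa, Cenpe and Cenpf, which encode the centromeric histone H3 variant, a kinetochore motor and a kinetochore protein, had changes of 0.02, -0.10 and -0.06 with overlapping groups. The motor genes were Kif11, which pushes spindle poles apart, and Kif20a, which acts in cytokinesis. Kif11 had 4.53 to 4.75 in old mice and 4.46 to 4.65 in young mice, and Kif20a 5.48 to 5.75 in old mice and 5.59 to 5.74 in young mice. Nusap1, a spindle protein, had 3.99 to 4.19 in old mice and 3.84 to 4.09 in young mice. Prc1, which bundles the microtubules of the central spindle, had 4.87 to 5.31 in old mice and 4.98 to 5.43 in young mice.

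Other probe sets of the same genes gave a check on these values. The members had 81 probe sets in all, of which 40 were not the brightest of their gene, and 26 of those 40 had a mean below the dim threshold. Ccnd1's 3 probe sets gave -0.21, -0.17 and -0.17, and Cdk6's gave -0.38, -0.27 and -0.07, each with the same sign. The 6 of Ccnd2 ran from -0.08 to 0.16 and the 3 of Top2a gave 0.08, -0.06 and -0.18. For 15 of the 27 genes with several probe sets the signs differed. The second probe sets of Mcm5 and Ccnd3, dim with means of 4.28 and 4.06, gave 0.04 and 0.10, opposite in sign to the brighter ones. Those of Mcm3 and Rbl2, dim with means of 4.90 and 5.02, gave 0.205 and 0.225, against -0.02 and 0.05 for the brighter ones. The second of Bub1b, which was not dim, gave 0.19, against -0.02. Pcna had 1 probe set, so its difference has no such check.

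With all probe sets tested alone, 1 of the 81 (the dimmer probe set of Rrm2) passed the threshold, against 3.29% of all 28898 probe sets with 1 symbol (1.52% higher in old mice). It rose in old mice by 0.30 ± 0.07 (SE; limma adjusted p = 0.0476 over all probe sets with 1 symbol). Its mean of 4.79 is below the dim threshold, and the brighter probe set of the gene, at 0.23 ± 0.13 (SE), did not pass.

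**Figure D4:**
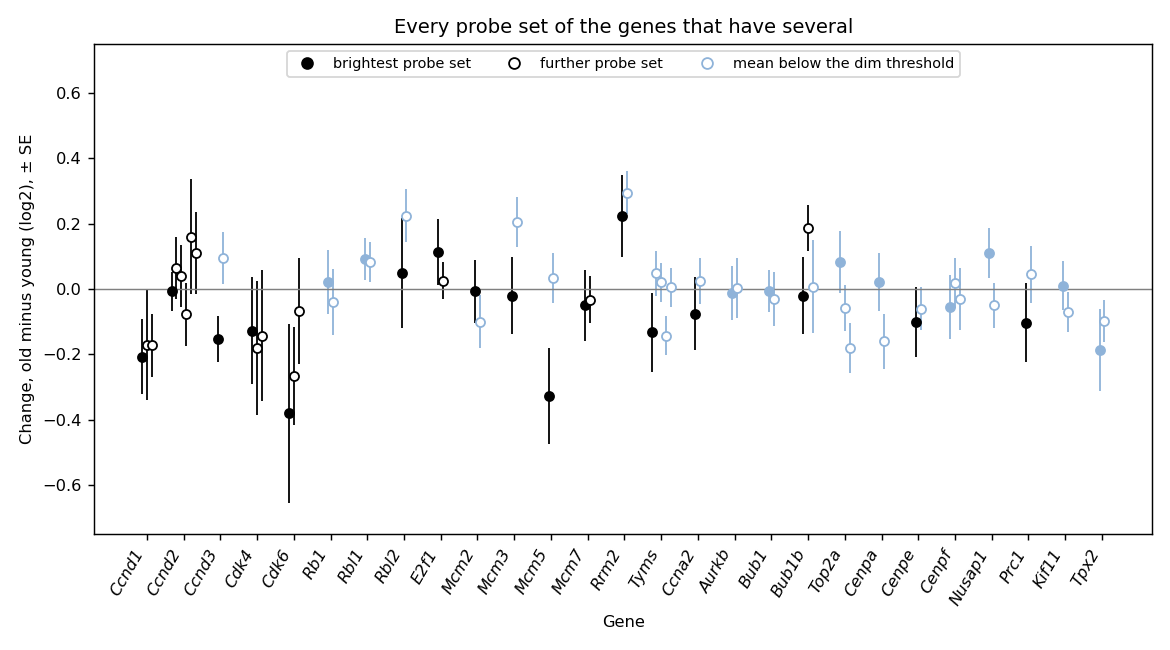
Change in log2 expression, old minus young, of every probe set (vertical axis) of the 27 members with several (horizontal axis), with bars of ± SE. Filled points are the brightest probe set of the gene, open points the others, and blue marks a mean below the dim threshold of 5.10. The probe sets of Ccnd1 and Cdk6 lie on 1 side of 0, and those of Ccnd2 and Top2a on both.

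The highest and lowest values of the members were not spread evenly over the mice. Old replicate 1 or young replicate 1, a pair picked after the values were seen, held the highest value for 27 of the 41 members (65.9%), against 39.7% of all genes. Of the 116 further cell cycle genes described below, 47 (40.5%) were highest in this pair, a share near that of all genes. Without the G1 genes it was 22 of 31 (71%). Young replicate 1 alone was highest for 14 members (34.1% against 14.3% of all genes), and old replicate 1 alone for 13 (31.7% against 25.7%). Young replicate 3 was lowest for 12 (29.3% against 18.6%). The G1 genes ran otherwise, and old replicate 1 was the lowest mouse for 7 of these 10 (70%), against 19.6% of all genes.

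The same shows in mean levels after each gene was centred on its mean over the 8 mice. Over the 31 members outside G1, these were 0.07, -0.02, -0.09 and -0.02 in old replicates 1 to 4, against 0.14, 0.02, -0.09 and -0.01 in young replicates 1 to 4. Replicate 1 was the highest and replicate 3 the lowest at each age, so the range within an age was wider than the gap between ages. The 10 G1 genes had -0.24, -0.01, 0.04 and 0.10 in old mice, against 0.07, 0.09, 0.03 and -0.09 in young mice, where old replicate 1 stood lowest. Over all 17097 genes these means ran from -0.02 in old replicate 1 to 0.02 in young replicate 1.

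**Figure D5:**
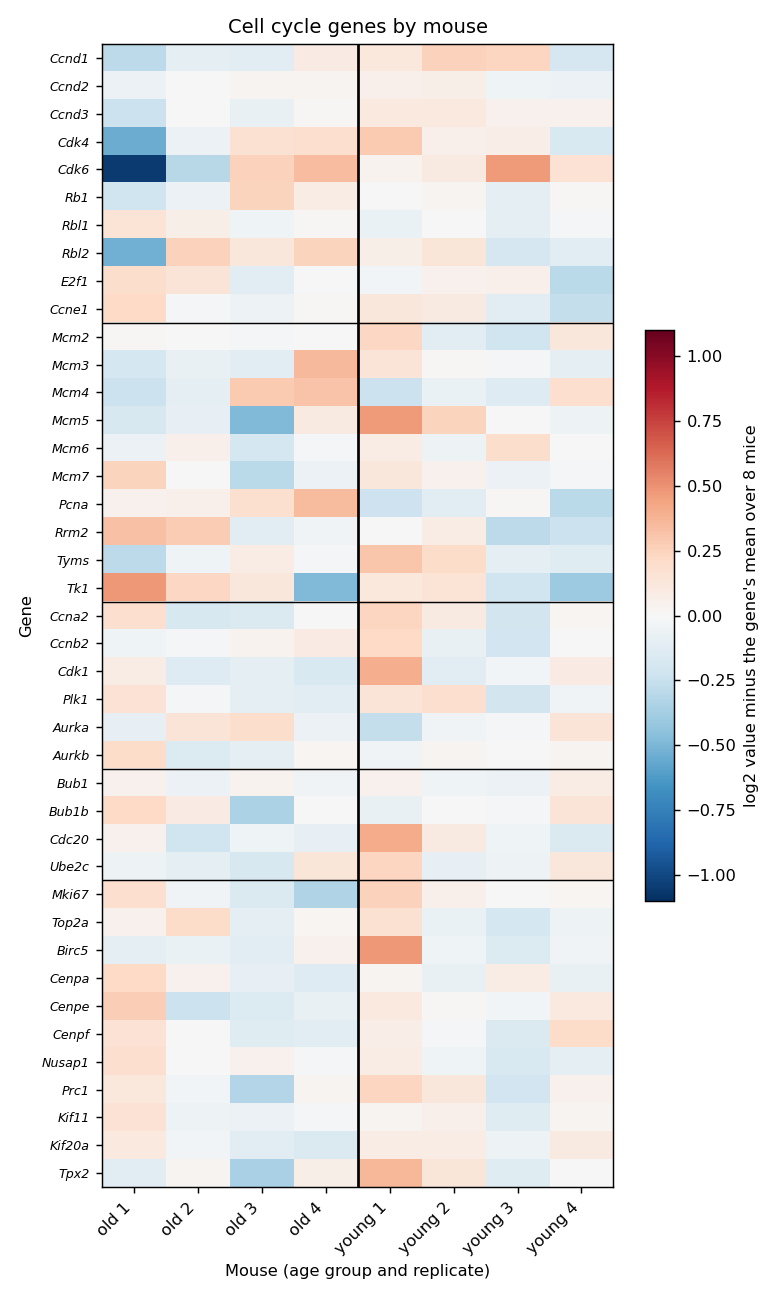
Log2 expression of each measured member in each mouse (columns, old mice left and young mice right), centred on the gene's mean over the 8 mice, on a colour scale from -1.1 to 1.1. Rows are grouped by role. Outside G1 the columns of old replicate 1 and young replicate 1 hold the highest value in 22 of 31 rows (71%). This pair was picked after the values were seen, and it was highest for 39.7% of all genes.

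The numbers in the sample titles form 2 runs, the first with replicates 1 and 2 and the second with replicates 3 and 4 of each age. Each run has the makeup of a collection day, but the labels do not say that runs are days. With age in the limma fit, the second run was below the first for 25 of the 31 members outside G1. It was so for all 11 chromosome and spindle genes and 40 of 57 further mitosis genes, against 58.7% of all genes. This share depends on signal, as it was 49.9% for genes with a mean at or above the dim threshold. Of the members at or above it, 18 of 28 (64.3%) were lower in the second run. A mean below it was found for 7 of the 11 chromosome and spindle genes and 11 of the 31 members outside G1. Between the runs, no member had an adjusted p under 0.05 (0.0468% of all genes did). An unadjusted p under 0.05 was found for 9 of 41, against 16.6% of all genes. Rrm2 came closest, with means of 5.89 in the second run and 6.23 in the first, a difference of -0.34 ± 0.06 (SE; limma adjusted p = 0.0709). Tk1 had 4.93 in the second run and 5.42 in the first (-0.49), and Cdk6 8.19 in the second run and 7.58 in the first (0.61), with limma adjusted p of 0.151 and 0.195. This comparison of runs was chosen after seeing the data.

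Within the runs, the difference between ages kept its sign for Pcna, at 0.23 in the first run and 0.40 in the second. For Cdk6 it was -0.75 in the first run and -0.02 in the second. With the run as a block in the fit, Pcna had a limma adjusted p of 0.084 and Rrm2 of 0.0701, and still none of the 41 members passed.

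A wider list of 123 further cell cycle genes was set beside the members, and 116 of them were measured. A single one passed the threshold (limma adjusted p under 0.05), 1 of 40 measured genes of licensing and replication, against 3.97% of all genes. None passed among the 19 measured G1, E2F and DREAM genes or the 57 of mitosis. In these 2 lists 3 (15.8%) and 6 (10.5%) had an unadjusted limma p under 0.05, against 15.1% of all genes. Over the 116, 58 changes were negative and 56 positive, and the median was -0.00.

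The gene that passed was Pold2, the accessory subunit of DNA polymerase delta, the enzyme that Pcna clamps to DNA. It had 8.40, 8.79, 8.70 and 8.64 in old mice, against 7.83, 7.72, 7.74 and 7.74 in young mice. All old mice were far above all young mice, and Pold2 rose by 0.88 ± 0.09 (SE; limma adjusted p = 0.000937). It passed with any 1 mouse left out, with changes from 0.82 to 0.95.

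Of each list, the genes with the smallest p besides Pold2 did not pass. E2f3, an activating E2F factor, had 5.40, 5.22, 5.16 and 5.33 in old mice, against 5.66, 5.42, 5.70 and 5.67 in young mice, with no overlap (-0.34; limma adjusted p = 0.0684). Smc4, a condensin subunit, had 7.14, 7.19, 7.74 and 7.55 in old mice, against 8.22, 7.70, 8.11 and 7.88 in young mice, where only old replicate 3 reached the young range (-0.57; limma adjusted p = 0.0864). Stmn1 (stathmin), which destabilises microtubules, had 7.03 to 7.82 in old mice and 7.82 to 8.45 in young mice, meeting at 7.82 (-0.61; limma adjusted p = 0.12). Mcm10, which helps start replication forks, and Myc, a growth-driving transcription factor, had positive changes of 0.27 and 0.18, with limma adjusted p of 0.206 and 0.314.

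The sorted cells carried strong fibroblast signal at both ages, with a mean level of the fibroblast marker list of 10.45 to 10.61 in old mice and 10.65 to 10.74 in young mice. Of the genes of the sorting gate, Cd34 had 10.97 to 11.05 in old mice and 10.76 to 10.90 in young mice. The only probe set of Pdgfra was dim, at 4.22 to 4.85 in old mice and 4.78 to 5.36 in young mice, a change of -0.59 with a limma adjusted p of 0.0808, which was 0.0464 with the run as a block. Among the genes gated against, Epcam had 5.23 to 5.61 in old mice and 4.96 to 5.13 in young mice, with no overlap (0.40; limma adjusted p = 0.0584). Ptprc (CD45) and Kit (CD117) were dim on all arrays, and Pecam1 (CD31) had 5.80 to 6.30 in old mice and 5.76 to 6.09 in young mice.

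In the marker lists, 4 genes passed the threshold, which 3.97% of all genes did. They were 2 of 10 fibroblast, 1 of 8 melanocyte and 1 of 6 measured pericyte and smooth muscle markers. None passed of the 12 leukocyte, 10 endothelial, 10 keratinocyte and 5 adipocyte markers measured. Thy1 and Fbln1, fibroblast markers, fell in old mice by 0.61 and 0.38 (limma adjusted p = 0.00176 and 0.0456). Mlana rose in old mice by 2.88 (limma adjusted p = 0.00194), while 3 of the 8 melanocyte markers had negative changes and the list's median was 0.07. Kcnj8 rose by 1.16 (limma adjusted p = 0.0035), while 4 of the 6 measured pericyte and smooth muscle markers had negative changes and the median was -0.02. The leukocyte list averaged 4.94 to 5.02 in old mice and 4.82 to 4.91 in young mice, with 8 of its 12 markers dim. The keratinocyte list averaged 5.75 to 6.95 in old mice, highest in old replicate 3, and 5.61 to 6.18 in young mice. Young replicate 1, the highest mouse for 14 members, had the highest mean among young mice in the leukocyte, endothelial, pericyte and adipocyte lists. These means were 4.91, 5.08, 5.72 and 5.02, against up to 5.02, 5.16, 5.87 and 5.04 in old mice. In the keratinocyte and melanocyte lists young replicate 4 was the highest young mouse. The part of other cells in the values of the members was not tested.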

How the data were processed

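Each of 8 arrays has 45141 probe-set values on the log2 scale, which the authors made with RMA and affy (submitters' processing notes). Versions, the array version and any filter are not stated there. RMA brings arrays to 1 distribution, so a shift shared by all genes would be removed. Array medians lay between 5.06 and 5.14, no 2 arrays were identical, and the number of arrays limits the precision.

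The fit of old against young mice, 4 of each, used limma 3.58.1 (R 4.3.3) with a 2-sided moderated test. Its p-values were adjusted over 17097 genes by Benjamini-Hochberg, at a threshold of 0.05. Every p in the text comes from limma. The annotation named 1 gene for 28898 probe sets, several for 551 and none for 15692. The title numbers form 2 runs of 2 old and 2 young mice, which were also used as a block. Of the 123 other cell cycle genes, the text names those past the threshold and otherwise the 2 with the smallest p of each list, and of the marker lists those past the threshold and the genes of the sorting gate that the lists hold. The members and lists were chosen with earlier results of these data known. Promoter windows came from RefSeq (GRCm38.p6). The fit was tested on simulated arrays.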

Additional observations from a re-analysis of the deposited data

Results flagged for a closer look

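In 3 of the 82 groups of 4 mice formed by the 41 members and the 2 ages, 1 mouse stood apart from the other 3 by Dixon's criterion, and chance alone marks about 1 in 20 such groups. Rbl2, the pocket protein of resting cells, was 5.76 in old replicate 1, against 6.41 to 6.54 in the other 3 old mice. Kif11, a spindle motor gene with dim signal, was 4.46 in young replicate 3, against 4.62 to 4.65 in the other 3 young mice. Kif20a, a motor gene of cytokinesis, was 5.59 in young replicate 3, against 5.72 to 5.74 in the other 3 young mice. Young replicate 3 was also the lowest mouse for 12 of the 41 members (29.3%), against 18.6% of all genes.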

How the results depend on the processing

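Of 17 refits over all genes, 16 called none of the 41 members, and the lowest adjusted p of a member in these was 0.0569, for Pcna with array weights. With every probe set tested on its own, 1 member was called, through the dimmer probe set of Rrm2. The median change of the members stayed between -0.06 and 0.01. For 19 of the 41 members the sign of the change differed in at least 1 setting, none of them past the threshold, so their direction is not set by these data. Over all genes, 679 passed at an adjusted p under 0.05, 919 with the run of title numbers as a replicate block and 1082 at an adjusted p under 0.1. Leaving out 1 mouse gave 427 to 606, with 427, 451 and 445 without old replicates 2, 3 and 4 and 448 without young replicate 3. The cause was not tested. The block called no member. The runs hold 2 old and 2 young mice each, but whether they are collection days is not stated. Dim signal limits 13 members, whose mean lay below 5.10.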
